A study of Mus musculus with 10 samples.

Results

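The integrated stress response and its serine synthesis arm were followed through 9 genes in the terminal ileum of mice after vertical sleeve gastrectomy (VSG) and of sham-operated mice. The genes were taken by symbol from the deposited gene tables: the transcription factors Atf4 and Atf5, the pseudokinase Trib3, the effectors Asns, Chac1, Sesn2 and Ddit4, and the serine synthesis enzymes Phgdh and Psat1. Each symbol belonged to 1 Ensembl gene, so they make up 9 of the 36401 genes listed, and all 9 passed the filter on low counts that left 15678 genes for testing.

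All mice were male C57Bl6 made obese on a diet with 60% of its energy from fat. The labels give 6 weeks of diet before surgery and an age at surgery of 8 weeks. These figures are hard to reconcile, and the labels do not settle whether the 8 weeks are age or time on the diet. In VSG the greater curvature is cut away and a narrow gastric tube is left. Both groups received the liquid diet Osmolite around surgery. The 5 VSG mice ate freely afterwards, and the 5 sham mice were pair-fed to them, so the groups differ in the operation and in how food was offered. About 8 weeks after surgery all were fasted overnight, gavaged with 0.5 mL of Osmolite and sampled 1 hour later. Whole ileum is a mixture of epithelium, immune cells, muscle and attached tissue, and for every gene below fewer cells of a type and less RNA per cell cannot be told apart.

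The integrated stress response is the common output of kinases that phosphorylate the translation factor eIF2 when amino acids run short, unfolded protein builds up in the endoplasmic reticulum, haem is low or viral RNA is present. General translation then slows while that of ATF4 goes up, and ATF4 turns on genes for amino acid synthesis and uptake, redox balance and restraint of mTORC1, the kinase complex that drives growth. Phgdh and Psat1, which make serine from a glycolytic intermediate, are among the genes that ATF4 is known to induce. ATF4 is controlled largely at translation, so transcript counts do not measure the amount of ATF4 protein.

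ATF4 binds, with C/EBP partners, a composite element whose core is written TGATGNAA. The promoters that hold it, and that of Psat1 as a member without it, are shown because the genes' levels are set side by side below. They run from 250 bases before to 30 bases after the annotated start, 5′ to 3′ on the gene's strand, from RefSeq on GRCm38.p6. Capitals mark the match, which on the opposite strand reads as the reverse complement. Asns lies at chr6:7693180-7693459 (minus strand), Chac1 at chr2:119350992-119351271 (plus), Trib3 at chr2:152344031-152344310 (minus) and Psat1 at chr19:15925030-15925309 (minus).
Asns: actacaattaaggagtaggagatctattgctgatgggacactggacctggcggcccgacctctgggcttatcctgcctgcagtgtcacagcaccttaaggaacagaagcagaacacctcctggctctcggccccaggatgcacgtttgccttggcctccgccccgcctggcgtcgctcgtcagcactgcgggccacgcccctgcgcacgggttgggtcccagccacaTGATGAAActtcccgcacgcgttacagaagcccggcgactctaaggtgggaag
Chac1: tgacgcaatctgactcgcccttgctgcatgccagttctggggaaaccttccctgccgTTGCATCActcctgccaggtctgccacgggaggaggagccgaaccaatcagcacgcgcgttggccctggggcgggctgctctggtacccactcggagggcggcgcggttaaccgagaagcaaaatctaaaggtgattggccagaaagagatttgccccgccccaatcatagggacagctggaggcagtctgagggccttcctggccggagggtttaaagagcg
Trib3: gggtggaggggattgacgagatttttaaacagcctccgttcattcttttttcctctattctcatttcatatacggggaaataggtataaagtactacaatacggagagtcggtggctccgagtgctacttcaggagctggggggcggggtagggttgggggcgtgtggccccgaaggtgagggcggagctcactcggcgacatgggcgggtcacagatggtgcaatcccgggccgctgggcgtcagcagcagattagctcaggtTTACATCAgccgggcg
Psat1: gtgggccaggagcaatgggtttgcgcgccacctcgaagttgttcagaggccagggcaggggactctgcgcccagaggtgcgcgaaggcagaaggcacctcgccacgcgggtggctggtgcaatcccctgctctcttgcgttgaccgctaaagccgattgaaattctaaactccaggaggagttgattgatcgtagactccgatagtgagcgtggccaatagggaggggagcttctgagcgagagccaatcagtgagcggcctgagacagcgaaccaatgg
Asns matched as TGATGAAA from base -23, Chac1 as TTGCATCA from base -193, and Trib3 as TTACATCA from base 15 after the start. The promoters of all 9 members were found in the table, 11 windows in all, searched over 250 bases before to 50 after the start on both strands. Only these 3 members held a match, against 4.51% of 27025 genes, or 3.97% of 32851 windows. The absence of a match says only that these letters are not in these windows. A match is a description of the letters, and binding was not measured.

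Total estimated counts ran from 15364651 to 34058181 per library. Levels are given as normalised CPM, the usual depth-scaled counts, after scaling between libraries with TMM factors. In VSG 2, sham 2 and sham 4, Gata4, a transcription factor of duodenum and jejunum, was at 109.4 to 183.3 CPM against 1.72 to 6.28 in the other 7 libraries, and Fabp6, the ileal bile acid binding protein, at 38.9 to 62.0 against 2556 to 6106. These 3 libraries therefore go against the ileal label in Gata4 and Fabp6, and each difference below was also computed without them. They were set apart by a list of 8 upper small intestine markers, of which Lct, Onecut2, Adh6a and Gip were also above the other 7 libraries. The list was not uniform. Slc40a1 was lower in the 3, at 3.68 to 13.6 CPM against 35.8 to 98.2, Cybrd1 overlapped, and Pdx1 was high in sham 4 alone. For each of the 9 members the range in the 3 libraries overlapped that in the other 7. Over all genes tested, 6.08% were above and 5.64% below in the 3 with no overlap. Sham 5 stood apart in another way. Its 8 smooth muscle markers summed to 3799 CPM, against at most 1945 in any other library, and its 8 enterocyte markers summed to 16270 CPM, the lowest of the 10 libraries. The p-values below set group differences against the spread between these libraries, each from 1 mouse as far as the labels say.

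No member passed the test between VSG and sham. Of the 9, 6 had lower and 3 had higher fitted values in VSG, where 41.9% of all genes were higher. After the test 0 were called, with p-values adjusted over all genes (edgeR quasi-likelihood test), as were 0% of all genes. At an unadjusted p under 0.05 there were also 0 members, against 3.8% of all genes, and the groups did not overlap for 0 members, against 0.549% of all genes. DESeq2 called 0 members and 11 of 15678 genes. At an unadjusted p under 0.05 it had 1 of 9 members and 727 of 15678 genes. The median log2 fold change was -0.13 over the members and -0.05 over all genes tested. In the edgeR and overlap counts the members were at or below the background.

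**Figure D1:**
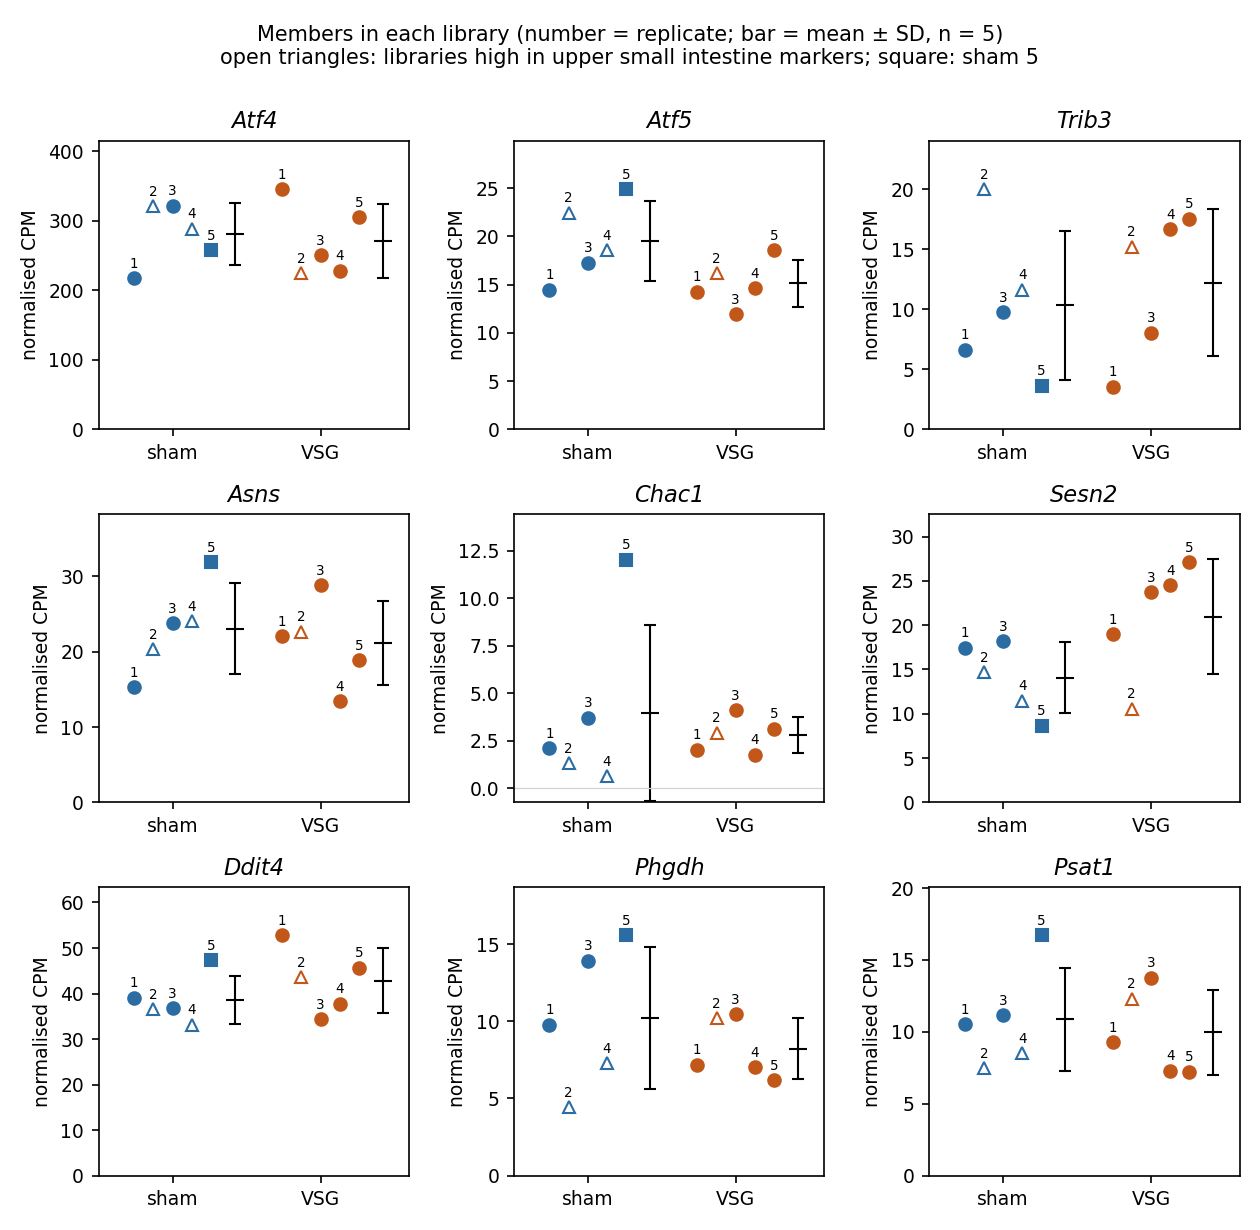
Normalised CPM (linear axis) of the 9 members in the 5 sham (blue) and 5 VSG (orange) libraries, numbered by replicate, with the mean ± SD of each group at its right. Open triangles are VSG 2, sham 2 and sham 4, and the square is sham 5, which is the highest library for Asns, Chac1, Phgdh, Psat1 and Atf5 and the lowest for Sesn2.

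The members differed widely in level. On a scale of CPM per kilobase of exon, with lengths from GENCODE M21, Atf4 stood at 117 ± 19.6 (SD over 10 libraries), Ddit4 at 23.2 ± 3.61, Atf5 at 8.70 ± 2.00 and Asns at 8.09 ± 2.05. Below them came Trib3 at 5.30 ± 2.77, Sesn2 at 5.05 ± 1.80, Phgdh at 3.70 ± 1.41, Psat1 at 2.45 ± 0.736 and Chac1 at 2.06 ± 1.97. Atf4 was above Ddit4 and Ddit4 above Atf5 in 10 of 10 libraries with no overlap of their ranges. On this scale Phgdh was above Psat1 in 10 of 10 libraries, although their ranges overlapped. That order rests on the exon lengths used, 2486 bases for Phgdh and 4254 for Psat1. In CPM before division by length the means were the other way round, 9.21 for Phgdh and 10.4 for Psat1. The neighbours Atf5 and Asns (in that order in 6 of 10 libraries), Asns and Trib3 (7), Trib3 and Sesn2 (5), Sesn2 and Phgdh (7), and Psat1 and Chac1 (8) did not differ beyond the spread of their difference. Within groups the SD of log2 CPM was smallest for Ddit4 at 0.22 and Atf4 at 0.26, and largest for Chac1 at 1.15 and Trib3 at 0.94, against a median of 0.33 over 14138 genes averaging 1 CPM or more. The transcript of the factor at the head of the pathway thus varied less between mice than the median gene, and Chac1 and Trib3 varied more than 95.6% and 92.7% of genes. The genes compared were not matched for level. Atf4 had 3707 to 9933 estimated reads per library and Chac1 11 to 463, the 463 being sham 5.

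Among the transcription factors, Atf4 (ENSMUSG00000042406), the effector of the response, stood at 346, 224, 250, 228 and 305 CPM in VSG 1 to 5. Its values in sham 1 to 5 were 217, 321, 322, 288 and 258. The groups covered nearly the same range, with VSG 1 highest and sham 1 lowest. Its log2 fold change was -0.05 ± 0.17 (SE; 95% interval -0.43 to 0.32, edgeR adjusted p = 0.99).

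Atf5 (ENSMUSG00000038539), a related factor of the mitochondrial and amino acid stress programmes, stood at 14.2, 16.2, 11.9, 14.6 and 18.6 CPM in VSG 1 to 5. The sham libraries, in the same order, were at 14.5, 22.5, 17.3, 18.6 and 24.9. Sham 5 and sham 2 were well above every VSG library and sham 4 barely so, VSG 3 was below every other library, and sham 1 and sham 3 lay among the VSG libraries. On the log2 scale VSG minus sham was -0.37 ± 0.18 (SE; 95% interval -0.76 to 0.02, edgeR adjusted p = 0.977), and -0.26 without sham 5. In GENCODE M21, 82 exon bases of Atf5 overlap Il4i1 and Nup62 on the other strand, and reads there cannot be assigned without strand.

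Trib3 (ENSMUSG00000032715), a pseudokinase induced by ATF4 that in turn restrains it, stood at 3.55, 15.2, 8.03, 16.7 and 17.6 CPM in VSG 1 to 5. In sham 1 to 5 it stood at 6.62, 20.0, 9.76, 11.6 and 3.64. VSG 1 and sham 5 were about equally low and sham 2 was highest, so both groups held mice at each end. The log2 fold change was 0.24 ± 0.49 (SE; 95% interval -0.83 to 1.32, edgeR adjusted p = 0.985). It was 0.04 without sham 5, 0.63 without sham 2, and 0.79 without VSG 2, sham 2 and sham 4 (edgeR adjusted p = 0.791), or 0.48 without sham 5 as well.

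Of the effectors in amino acid and redox metabolism, Asns (ENSMUSG00000029752), which makes asparagine from aspartate and glutamine, stood at 22.1, 22.7, 28.8, 13.4 and 18.9 CPM in VSG 1 to 5. Its values in sham 1 to 5 were 15.3, 20.3, 23.8, 24.0 and 31.9. Sham 5 was highest and VSG 4 lowest, with the groups overlapping throughout. Its log2 fold change was -0.13 ± 0.23 (SE; 95% interval -0.63 to 0.37, edgeR adjusted p = 0.983), and 0.02 without sham 5.

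Chac1 (ENSMUSG00000027313), an enzyme that degrades glutathione, stood at 2.03, 2.91, 4.12, 1.75 and 3.12 CPM in VSG 1 to 5. The sham libraries, in the same order, were at 2.11, 1.32, 3.70, 0.612 and 12.0. Sham 5 was far above all others and sham 4, with 11 reads, was lowest, so the sham group spanned the whole range and held the VSG group inside it. On the log2 scale VSG minus sham was -0.53 ± 0.66 (SE; 95% interval -1.97 to 0.91, edgeR adjusted p = 0.977). Without sham 5 its sign turned, to 0.50, and without VSG 2, sham 2 and sham 4 it was -1.13. Leaving out sham 5 as well brought that to -0.09.

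Of the effectors that restrain mTORC1, Sesn2 (ENSMUSG00000028893), a sestrin that senses leucine, stood at 19.0, 10.6, 23.7, 24.5 and 27.1 CPM in VSG 1 to 5. In sham 1 to 5 it stood at 17.5, 14.7, 18.2, 11.5 and 8.68. Every VSG library but VSG 2 was above every sham library. Group means were 21.0 ± 6.51 after VSG against 14.1 ± 4.02 after sham surgery (SD, 5 mice each). The fitted difference was 0.57 ± 0.27 (SE) on the log2 scale, its 95% interval ran from -0.03 to 1.17 (edgeR adjusted p = 0.977), and the exact two-sided permutation test over 252 assignments gave p = 0.119. It was 0.45 without sham 5.

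VSG 2 is 1 of the 3 libraries with high Gata4 and low Fabp6, and Sesn2 was at 10.6 to 14.7 CPM in those 3. Without them the 4 VSG libraries stood at 19.0 to 27.1 CPM and the 3 sham libraries at 8.68 to 18.2, with no overlap. The log2 fold change was then 0.68 (95% interval 0.07 to 1.29, edgeR adjusted p = 0.696). That value rests in part on sham 5: without it too, the value was 0.40 (edgeR adjusted p = 0.932) and no longer at an unadjusted p under 0.05. Among those 7 libraries the groups did not overlap for 1 of 9 members, and for 8.14% of all genes, with all VSG above all sham for 4.37%. Its relatives Sesn1 and Sesn3 had log2 fold changes of 0.02 ± 0.22 and -0.01 ± 0.27 (SE).

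Ddit4 (ENSMUSG00000020108), which acts on mTORC1 through TSC and is also induced by hypoxia and glucocorticoids, stood at 52.8, 43.6, 34.4, 37.8 and 45.7 CPM in VSG 1 to 5. Its values in sham 1 to 5 were 39.1, 36.6, 36.8, 33.1 and 47.3. Apart from sham 5 the sham libraries lay in a narrow band, and VSG 3 and VSG 4 lay inside it. Its log2 fold change was 0.15 ± 0.14 (SE; 95% interval -0.16 to 0.46, edgeR adjusted p = 0.977). Leaving out VSG 1 gave 0.08, and leaving out sham 5 gave 0.24.

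Of the serine synthesis enzymes, Phgdh (ENSMUSG00000053398), which catalyses the first committed step, stood at 7.18, 10.2, 10.5, 7.04 and 6.20 CPM in VSG 1 to 5. The sham libraries, in the same order, were at 9.77, 4.42, 13.9, 7.29 and 15.6. Sham 3 and sham 5 were above every VSG library, and sham 2 was below every VSG library. On the log2 scale VSG minus sham was -0.32 ± 0.32 (SE; 95% interval -1.02 to 0.39, edgeR adjusted p = 0.977), -0.12 without sham 5 and -0.51 without sham 2. Without VSG 2, sham 2 and sham 4 it was -0.76 (95% interval -1.33 to -0.20, edgeR adjusted p = 0.633).

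Psat1 (ENSMUSG00000024640), the aminotransferase of the next step, stood at 9.29, 12.3, 13.8, 7.31 and 7.24 CPM in VSG 1 to 5. In sham 1 to 5 it stood at 10.5, 7.49, 11.2, 8.52 and 16.7. Sham 5 was highest and the other libraries of both groups were intermingled. The log2 fold change was -0.13 ± 0.26 (SE; 95% interval -0.70 to 0.44, edgeR adjusted p = 0.985). Its sign turned without sham 5, to 0.08, and it was -0.45 without VSG 2, sham 2 and sham 4, or -0.22 without sham 5 as well. In those 7 libraries Phgdh and Sesn2 were the 2 of 9 members at an unadjusted p under 0.05, against 6.96% of all genes, and 0 members were called. The remaining members had log2 fold changes there of 0.09 for Atf4, -0.34 for Atf5, -0.19 for Asns and 0.06 for Ddit4. Without sham 5 as well these were 0.06, -0.10, 0.08 and 0.16, and Phgdh was at -0.63, where 0 members were at an unadjusted p under 0.05.

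**Figure D2:**
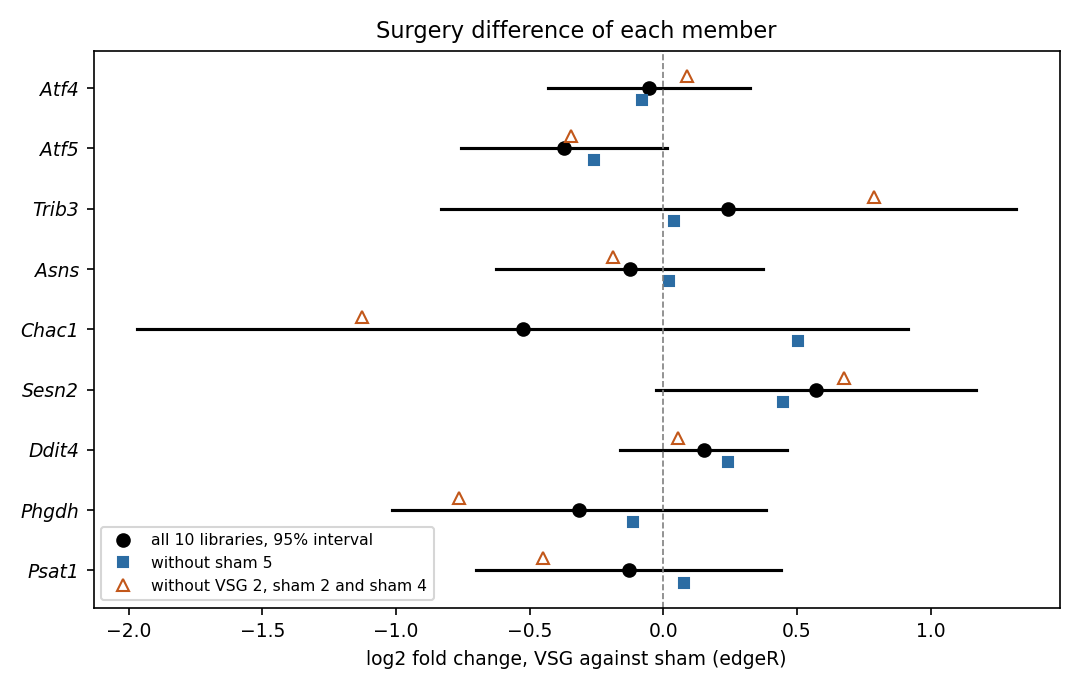
Log2 fold change of VSG against sham for the 9 members, with the 95% interval from edgeR for all 10 libraries (black), without sham 5 (blue squares) and without VSG 2, sham 2 and sham 4 (open triangles). Every black interval includes 0, and the squares and circles of Asns, Chac1 and Psat1 lie on opposite sides of 0.

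Several members were highest in the same mouse, and others were not. Sham 5 was the highest library for 5 of 9 members (Asns, Chac1, Phgdh, Psat1 and Atf5) and the lowest for Sesn2. It also had the highest mean z-score over the members, 0.68 against at most 0.36 elsewhere. The share of all genes highest in sham 5 was not counted, so neither value is shown to be particular to the members. VSG 1 was highest for Atf4 and Ddit4 and lowest for Trib3. In the 7 libraries low in upper small intestine markers, 19 of the 36 pairs of members had a positive correlation of log2 CPM, with a median Pearson r of 0.05. The 4 VSG and 3 sham libraries were pooled with no term for surgery, so a group difference enters each r. None of the 36 passed adjustment over the pairs (lowest adjusted exact permutation p = 0.172), and 8 had an unadjusted p under 0.05.

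Phgdh and Psat1, consecutive enzymes of 1 pathway, had the highest r, 0.88 (exact permutation p = 0.0111, adjusted 0.172) with a Spearman rho of 0.96 (exact permutation p = 0.00278, adjusted 0.1). Without the 2 libraries farthest from the median of Phgdh r was 0.72, and without sham 5 it was 0.80. Asns and Chac1 had r = 0.82 (exact permutation p = 0.0129, adjusted 0.172) and rho = 0.89 (exact permutation p = 0.0123, adjusted 0.221), with r = 0.70 after the same trimming by Asns. Trib3 and Sesn2 had r = 0.74 (exact permutation p = 0.0395, adjusted 0.178) and rho = 0.71 (exact permutation p = 0.0881, adjusted 0.352), with r = 0.77 after trimming by Trib3. Sesn2 ran opposite to Phgdh, at r = -0.76 (exact permutation p = 0.023, adjusted 0.172) and rho = -0.82 (exact permutation p = 0.0341, adjusted 0.288), and trimming by Sesn2 brought r to -0.39. That relation rests in part on the libraries left out. In these 7 libraries Sesn2 was fitted higher and Phgdh lower in VSG (0.68 and -0.76 on the log2 scale), so r also holds that difference. The relation between mice of 1 group was not tested.

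Over all 10 libraries, 1 of the 36 pairs passed, Phgdh with Psat1 (r = 0.87, permutation adjusted p = 0.0392, and rho = 0.92, permutation adjusted p = 0.018). Without sham 5 it did not pass in the 9 libraries left (r = 0.82, permutation adjusted p = 0.252). Asns with Chac1 had r = 0.49 in the 10 libraries and 0.18 without sham 5, and Trib3 with Sesn2 had 0.26 and -0.09. Sesn2 with Phgdh had -0.35 and -0.05. Of these pairs, Phgdh with Psat1 alone stayed above 0.8 in each of the 4 sets of libraries.

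**Figure D3:**
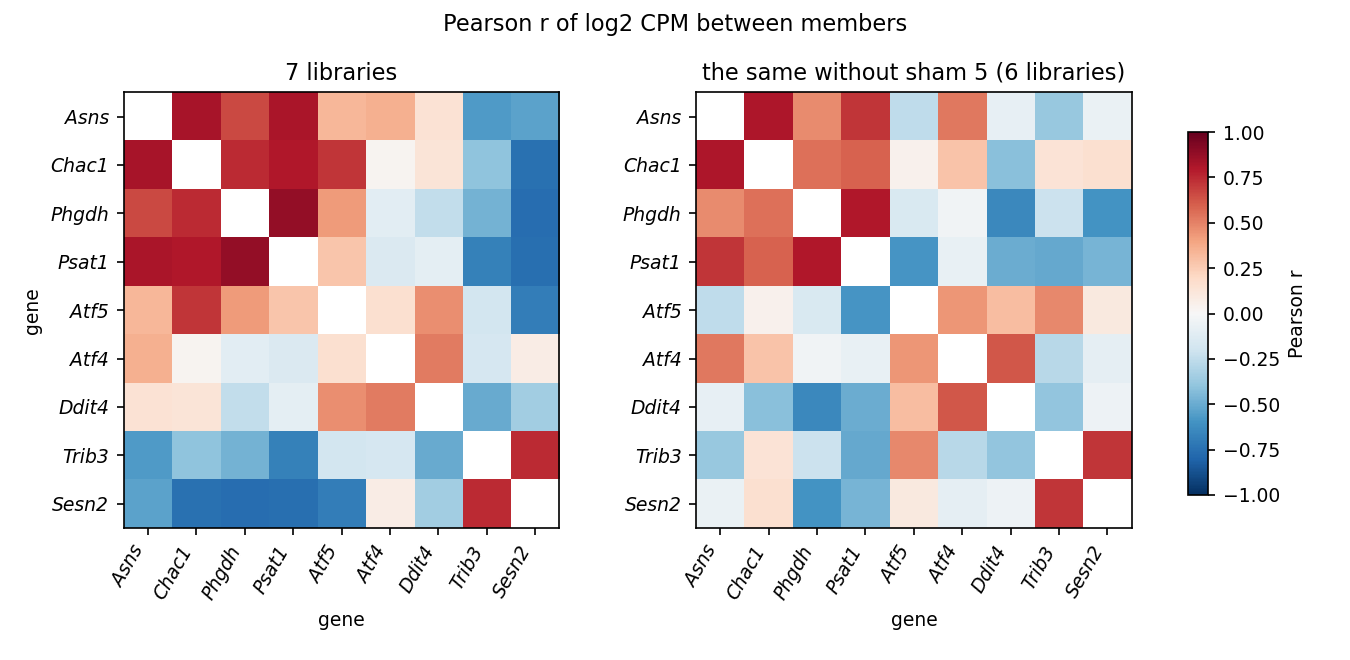
Pearson r of log2 CPM for each pair of members (colour, from -1 in blue to 1 in red) in the 7 libraries low in upper small intestine markers (left) and in the same without sham 5 (right). Asns, Chac1, Phgdh and Psat1 form a red block in both panels, Trib3 with Sesn2 stays red, and the blue of Sesn2 against Chac1 and Atf5 is absent without sham 5.

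The genes whose levels followed the members most closely were named by a fixed rule, from 14129 other genes averaging 1 CPM or more, as a description over 10 libraries. With the mean z-score of the members, Aars, the alanyl-tRNA synthetase, had the highest r at 0.84, followed by Adipoq, which encodes the fat cell hormone adiponectin, at 0.83. Wbp11 had 0.81, Ptpn2 0.81, Plin1, a coat protein of fat cell lipid droplets, 0.80 and Fkbp11 0.79. Without sham 5 these were 0.79, 0.73, 0.67, 0.65, 0.73 and 0.69. With Asns alone the highest were Fabp4, a fatty acid carrier of fat cells, at 0.91, Wbp11 at 0.90 and Lep, which encodes leptin, at 0.88, and without sham 5 they were 0.88, 0.86 and 0.83.

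After these values were seen, 10 genes of fat cells were looked up in each library. They include Adipoq, Plin1, Fabp4 and Lep, picked above for following the members' mean z-score or Asns, both highest in sham 5. Sham 5 was highest for 7 of the 10, and for the genes so picked this is no separate result. Adipoq stood at 10.7 CPM there, against 0.807 to 5.63 in the other sham libraries and 1.04 to 4.93 in VSG. Lep stood at 3.33 CPM in sham 5 against at most 1.28 elsewhere, Plin1 at 3.01 against at most 2.09, and Car3 at 40.6 against at most 18.2. At the low end the markers did not follow Asns throughout. VSG 4, with the lowest Asns, was lowest for Lep, Fabp4 and Car3, while Adipoq, Plin1, Retn and Cfd were lowest in sham 2, where Asns was 20.3 CPM. Lipe and Pparg, which enterocytes also express, were lowest in sham 5. No defining fat cell marker was at 0 in any library, and the part of these markers in the members' levels was not tested.

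**Figure D4:**
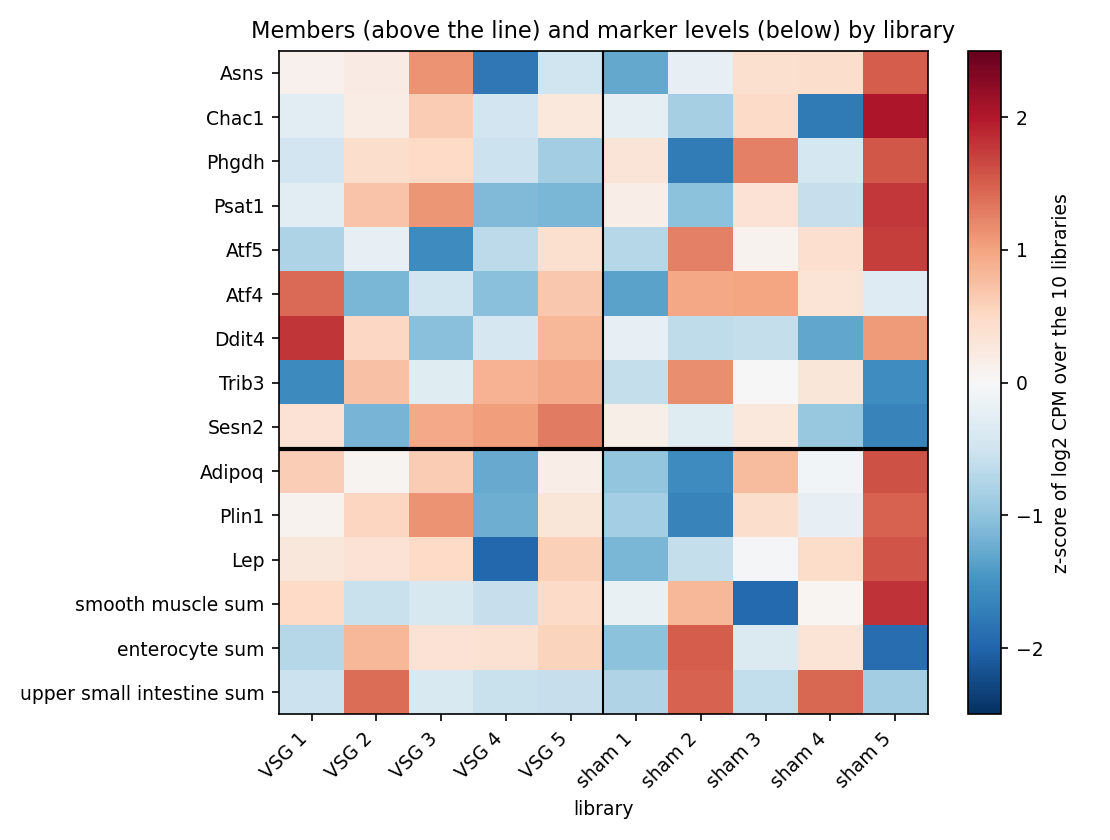
Z-score of log2 CPM over the 10 libraries (colour) for the 9 members above the line, and below it for 3 fat cell genes and the summed CPM of smooth muscle, enterocyte and upper small intestine markers. Sham 5, the last column, is high in Asns, Chac1, Phgdh, Psat1, the fat cell genes and smooth muscle, and low in Trib3, Sesn2 and enterocyte markers.

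Other cell types that the samples could hold moved with sham 5 to differing degrees. The 5 stem cell markers summed to 658.5 CPM in sham 5, against 333.9 to 536.5 in the other sham libraries and 160.0 to 510.4 in VSG. Olfm4 made up 513.7 CPM of the sum in sham 5, and Lgr5, Smoc2 and Axin2 were highest in other libraries. The 8 markers of enteric neurons and glia summed to 38.6 CPM in sham 5, against 3.70 to 28.8 elsewhere. Those of pancreatic acinar cells summed to between 3.83 and 13.0 CPM in all libraries, nearly all of it Cela1, which other tissues express too. Plasma cell markers, whose cells carry a large secretory machinery, summed to 882.7 to 1272 CPM in VSG and 516.3 to 1051 in sham, and crypt proliferation markers to 274.2 to 493.7 in VSG and 362.1 to 490.4 in sham. The part of these cells in the members' values was not tested.

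Upstream of Atf4, 10 genes around eIF2 were tested: the kinases, the phosphatase subunits that reverse them, and Gcn1l1, Eif2s1, Eif2b5 and Impact. Of the 10, 6 had higher and 4 lower fitted values in VSG, with 0 called. Ppp1r15b, the constitutive phosphatase subunit, averaged 274 ± 28.4 CPM after VSG against 226 ± 29.1 after sham surgery (SD, 5 mice each). Its log2 fold change was 0.28 ± 0.14 (SE). Ppp1r15a, the inducible subunit that closes the feedback loop, had 0.38 ± 0.25. Of the kinases, Eif2ak2, which senses double-stranded RNA, had 0.28 ± 0.16, and Eif2ak4, which senses uncharged tRNA, had -0.15 ± 0.17. Each of these 4 had a 95% interval that included 0.

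Of 18 other factors and targets of the response that could be tested, 14 had lower and 4 higher fitted values. Their median was -0.17 on the log2 scale and 0 were called. Gdf15, a stress-induced hormone, averaged 0.848 ± 0.122 CPM after VSG against 1.43 ± 0.377 after sham surgery (SD, 5 mice each). The fitted difference was -0.74 on the log2 scale (95% interval -1.29 to -0.19, edgeR adjusted p = 0.977), and it was the 1 gene of the list at an unadjusted p under 0.05, against 1.91% of all genes in that direction. By library it was at 1.02, 0.892, 0.810, 0.842 and 0.680 CPM in VSG 1 to 5 and at 1.56, 0.872, 1.53, 1.89 and 1.30 in sham 1 to 5, so that sham 2 alone lay among the VSG libraries. Cth, which makes cysteine, had a log2 fold change of -0.37 ± 0.18, Pck2, the mitochondrial form of PEPCK, -0.22 ± 0.13 and Eif4ebp1, a brake on cap-dependent translation, 0.54 ± 0.32 (SE). Ddit3, which encodes CHOP, had -0.29 ± 0.23, and was chosen after its values were seen. Fgf21, another hormone target, was too low to be tested.

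The enzymes around serine were mostly lower in their fitted values. Of 17 genes of serine, glycine and one-carbon metabolism, 14 were lower and 3 higher. Their median was -0.16 on the log2 scale and 0 were called. Amt and Aldh1l2, of glycine cleavage and mitochondrial folate, were low, with group means between 0.569 and 1.46 CPM, and had log2 fold changes of -0.61 ± 0.30 and -0.74 ± 0.52 (SE). Shmt1, which interconverts serine and glycine in the cytosol, had -0.25 ± 0.19. Psph, the last step of serine synthesis after Phgdh and Psat1, had 0.21 ± 0.16, the opposite sign to both, and was chosen after its values were seen. Among all genes tested, 58.1% had a log2 fold change below 0.

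For charging and transport of amino acids the fitted differences were small. The 20 aminoacyl-tRNA synthetases, several of them ATF4 targets, had log2 fold changes between -0.15 and 0.21 with a median of -0.07, and 0 were called. Rars had 0.21 ± 0.13, Qars 0.15 ± 0.14, Lars -0.11 ± 0.12 and Cars -0.11 ± 0.13 (SE). The 9 tested transporters ran from -0.22 to 0.17 with 0 called, among them Slc7a1 at -0.22 ± 0.36, Slc7a5 at -0.16 ± 0.36 and Slc6a9 at 0.17 ± 0.29. The 10 listed transporters summed to 1126 CPM in VSG 2, 1084 in sham 2 and 865.8 in sham 4, the libraries with high Gata4 and low Fabp6. The sum was 537.9 to 613.0 in the remaining 7. Slc36a1 was at 335.0, 317.8 and 148.1 CPM in those 3 against 22.7 to 38.9 elsewhere, and Slc3a2 was also higher there. Slc38a2 and Slc1a5 overlapped the remaining 7. Of 10 genes of proline, asparagine and glutamine metabolism, 6 were lower and 4 higher with 0 called. Glul, which makes glutamine, had 0.46 ± 0.23 and Aldh18a1, which starts proline synthesis, -0.65 ± 0.38 (SE). Aldh18a1 was highest in the same libraries, with 196.2 CPM in VSG 2, 231.7 in sham 2 and 315.2 in sham 4 against 83.6 to 125.3 elsewhere. Its log2 fold change without those 3 was -0.25.

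The relatives of the members, 10 genes, split into 5 higher and 5 lower with a median of 0.00 and 0 called. Ddit4l, below 1 CPM in both group means, had a log2 fold change of -0.60 ± 0.44 and Chac2 of 0.05 ± 0.21 (SE). Atf6, a sensor of the endoplasmic reticulum, had 0.25 ± 0.15. The 15 genes of the mTORC1 pathway ran from -0.12 to 0.24, among them Mtor at 0.16 ± 0.13, with 0 called. Of 7 mitochondrial stress genes, of which Atf5 is 1, 6 were lower, with Hspe1 at -0.36 ± 0.21 and Lonp1 at -0.19 ± 0.13, and 0 were called.

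Neighbouring stress programmes were compared by the same fit. Of 12 endoplasmic reticulum chaperones and their regulators, 11 had higher and 1 lower fitted values, with 0 called. Dnajb9, a target of the IRE1 and XBP1 arm, was the 1 gene of this list at an unadjusted p under 0.05, against 1.88% of all genes higher in VSG. It had 0.27 ± 0.12, and Xbp1 had 0.21 ± 0.16. Of 10 genes induced by glucocorticoids or fasting, a set that also bears on Ddit4, 5 were higher and 5 lower with 0 called. Fkbp5, a classical glucocorticoid target, had 0.78 ± 0.43, while Mt2 and Mt1, metallothioneins, had -1.09 ± 0.49 and -0.70 ± 0.39. Mt2 was the 1 gene of that list at an unadjusted p under 0.05, against 1.91% of all genes lower in VSG. Both metallothioneins were highest in VSG 2, sham 2 and sham 4, and without these had -0.73 and -0.71. Of 10 p53 targets, 7 were higher and 3 lower with 0 called, led by Trp53inp1 at 0.46 ± 0.19. It was the 1 p53 target at an unadjusted p under 0.05, against the same 1.88%. Many of these single-gene values moved with 1 library: of the 47 list genes picked by lowest p that are not members, 35 moved by over 1.5 times or turned sign when a library was left out. Mtor was at 0.07 without sham 3, Cars at -0.03 and Aldh1l2 at -0.36 without sham 5, Eif2ak4 at -0.03 without sham 1 and Slc7a1 at -0.03 without sham 4.

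**Figure D5:**
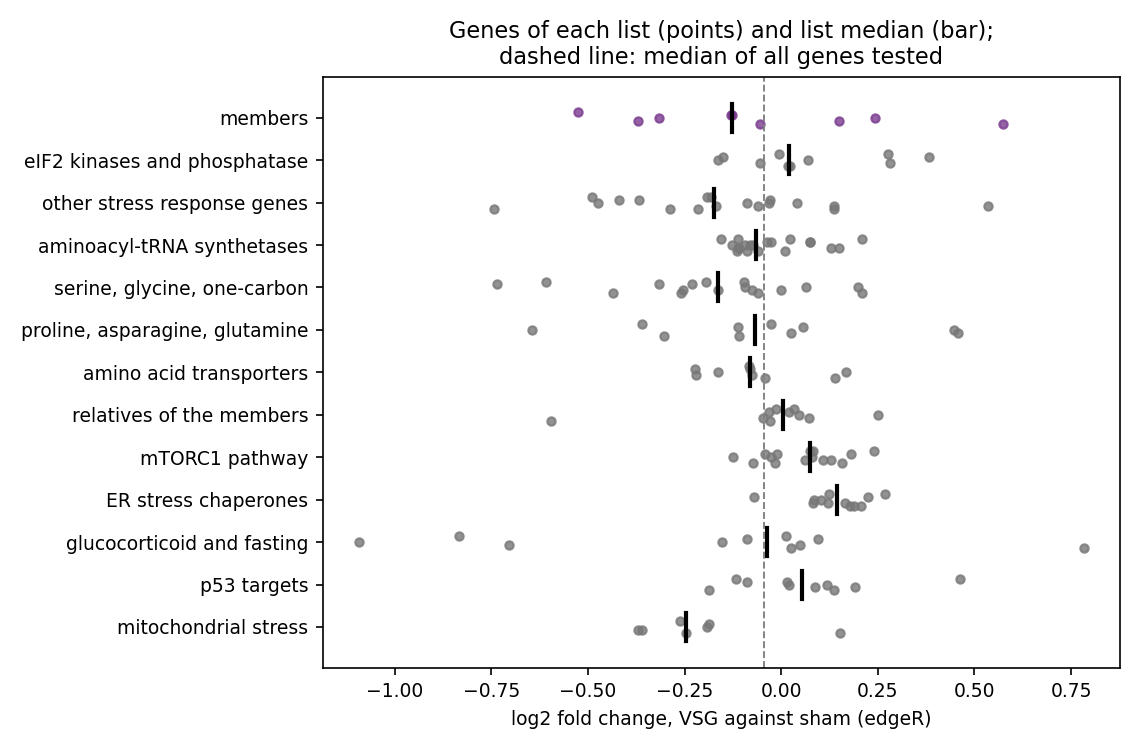
Log2 fold change of VSG against sham (edgeR, all 10 libraries) for each tested gene of the members and of 12 related lists (points), with list medians (bars) and the median of all genes tested (dashed line, -0.05). No gene shown was called, and list medians lie between -0.25 and 0.14.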

How the data were processed

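RNA of the terminal ileum from 5 VSG and 5 sham mice was sequenced as single-end 50-base reads from TruSeq RNA libraries, per the labels' protocols. The values deposited by the authors are estimated counts for each Ensembl gene. The files are named for RPKM although they hold read-scale values (61.2% are whole numbers, 10315 of 36401 genes have none). A second deposited file per library holds log2 values relative to the sham median. The submitters' processing notes name DESeq and the build mm9. The aligner and the rule that assigned fractions of reads are not given in the sources used here. Counts of Atf5, Trib3, Asns and Phgdh were fractional in all 10 libraries, and reads of near copies or overlapping genes may be shared.

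Estimated counts were rounded and tested with edgeR 4.0.16 (R 4.3.3): filterByExpr, TMM factors, a quasi-likelihood F test of surgery alone, adjusted by Benjamini-Hochberg over all 15678 genes, with a threshold of 0.05. The common coefficient of variation was 0.355. Log2 CPM used a prior count of 2. Correlations pooled VSG and sham libraries and used all 5040 pairings in 7 libraries, or 100000 random ones in larger sets. The smallest p of 5 against 5 is 0.00794. In counts simulated for 15516 genes of this comparison, the test found 33% of 2-fold and 87% of 4-fold changes and made 129 calls, of which 9 were false. Counts were drawn independently around 1 mean per gene, with 100 genes changed at each size. The split by position markers and a library like sham 5 were not simulated, so these shares may not carry over to the real libraries. DESeq2 1.42.0 and limma 3.58.1 were alternatives. The members and lists were chosen with earlier results of these data known. Genes named are the members, up to 4 per list by lowest p, and those most like the members; 2 genes the rule names are not reported here.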

Additional observations from a re-analysis of the deposited data

Results flagged for a closer look

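In 112 checks of a group of 5 libraries for a single value far from the rest, 7 stood out, and chance flags about 5% of groups. Among the members, Chac1 in sham 5, at 12.0 CPM, was far above the other sham libraries (0.612 to 3.70). In VSG 2, Mt1 stood at 230.5 CPM (others 69.5 to 100.9), Pdk4 at 37.7 (others 4.88 to 9.04) and Aldh18a1 at 196.2 (others 83.6 to 94.6). In sham 4, Hspa9 stood at 408.6 CPM (others 223.7 to 272.7) and Got2 at 133.1 (others 62.8 to 72.7). VSG 2 and sham 4 also had high Gata4 and low Fabp6. In VSG 3, Dnajc3 stood at 173.3 CPM (others 138.3 to 143.0).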

How the results depend on the processing

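0 members were called under every alternative run. Over all genes 0 were called, except 11 with the DESeq2 Wald test and 1 with limma-voom with sample weights, neither count holding a member. The 595 genes at an unadjusted p under 0.05 became 1015 with no filter, 2409 with sample weights and 1107 without VSG 2, sham 2 and sham 4, and ran from 399 to 1939 with each library left out (lowest without VSG 5, highest without sham 3, and 1135 without VSG 2). With the replicate block they were 408, with 0 called. Same-numbered libraries did not deviate together over all genes (correlations -0.32 to 0.18). The labels do not say whether a number marks anything shared. These correlations cannot decide it, because the libraries also differ in position markers. Members at that threshold numbered 1 with upper quartile factors, library totals, the DESeq2 Wald test, sample weights and the replicate block, 2 without VSG 2, sham 2 and sham 4, and 0 to 2 with each library left out. Over all genes the number was 647 with upper quartile factors, 568 with library totals and 727 with the DESeq2 Wald test. Atf4 turned sign with sample weights (0.060), without VSG 2, sham 2 and sham 4 (0.090), without these and sham 5 (0.061), and ranged from -0.146 to 0.0065 with each library left out. Chac1 turned with the replicate block (0.14) and the deposited log2 values (0.18), and ranged from -0.78 to 0.50. Asns ranged from -0.263 to 0.021, and was 0.080 without VSG 2, sham 2, sham 4 and sham 5. Psat1 ranged from -0.275 to 0.079, Trib3 from 0.04 to 0.63, Ddit4 from 0.08 to 0.24 and Phgdh from -0.51 to -0.12. Of the 9 members, 7 moved by over 1.5 times or turned sign, all but Atf5 and Sesn2. Of other genes, Chac2 was -0.0056 with upper quartile factors and -0.014 with library totals (range -0.045 to 0.237), Atf2 -0.0077 with library totals, Slc1a4 -0.23 with sample weights, and without VSG 2, sham 2 and sham 4 Creld2 was -0.028, Pdk4 0.089 and Slc1a4 -0.17. Slc6a9 ranged from -0.0060 to 0.427 and Slc7a5 from -0.40 to 0.11. The pairs of members passing adjustment were 0 in the 7 libraries and 1 in all 10. Leaving out sham 5 from correlations or together with the other 3 libraries was chosen after seeing the data. The cause of these changes was not tested. With 5 mice a group, the test on counts simulated without the position split found 33% of 2-fold changes, and Chac1 rests on 11 to 463 reads per library.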
